A study of Mus musculus with 6 samples.

Results

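The 5 keratin genes that make up the filament network of normal esophageal epithelium were followed through 6 RNA-seq libraries of mouse esophagus. They are Krt5, Krt14 and Krt15, which are made in the basal layer, and Krt4 and Krt13, which are made in the layers above it. The 5 were chosen for this place in the tissue, matched by symbol to the Ensembl identifiers of the count files, and are 5 of 54232 genes listed there. Every mouse had received the carcinogen 4-nitroquinoline 1-oxide (4-NQO) from 8 weeks of age, at 100 µg/ml in the water for 16 weeks, before 12 weeks on plain water, a course used to produce esophageal squamous cell carcinoma. In the last 2.5 weeks 3 libraries' mice received 10 µg injections of DTA-1, an antibody that activates GITR, a receptor on T cells, and those of the other 3 libraries received an isotype control antibody on the same schedule. The sources used here give neither strain nor sex, and there is no group without the carcinogen. The labels describe tissue enriched for invading cells; marker genes of epithelium, muscle, fibroblasts and fat were all present, and in such bulk RNA fewer epithelial cells and less keratin RNA per cell cannot be told apart. The labels do not state that each library is 1 mouse, and the spread that p-values rest on may be partly technical.

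Keratins are intermediate filament proteins that polymerize only as pairs of a type I and a type II chain. In stratified squamous epithelium the dividing basal cells, attached to the basement membrane, make the pair of type II Krt5 and type I Krt14, with type I Krt15 in addition; in mouse esophagus Krt15 also marks long-lived basal progenitor cells. As cells leave the basal layer they stop dividing and change to the pair of type II Krt4 and type I Krt13, which is characteristic of moist internal epithelia such as those of esophagus, mouth and forestomach. The type II genes lie together on mouse chromosome 15 and the type I genes on chromosome 11. On GRCm38, Krt5 (ENSMUSG00000061527) spans 101707070 to 101712898 and Krt4 (ENSMUSG00000059668) 101918535 to 101924735 on chromosome 15. On chromosome 11, Krt13 (ENSMUSG00000044041) spans 100117327 to 100121566, Krt15 (ENSMUSG00000054146) 100131758 to 100135928 and Krt14 (ENSMUSG00000045545) 100203162 to 100207548. All 5 are protein-coding genes on the minus strand.

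Keratin genes resemble each other, which bears on how far their reads can be told apart. Of all 50-base windows in the annotated transcripts, none of Krt4 or Krt13 recurred in another gene, 0.64% did for Krt15, 12.2% for Krt5 and 13.9% for Krt14. The genes with most of these windows were Krt6a for Krt5 and Krt16 for Krt14, both stress keratins. The longest coding stretch that Krt14 has in common with Krt16 (134 bases) is shown to make plain how long such identical runs are. It reaches into the start of the central rod, the part that keratin chains share most closely. The sequence is in coding direction from the GENCODE transcripts.
Krt14, coding bases 306 to 439, as in Krt16: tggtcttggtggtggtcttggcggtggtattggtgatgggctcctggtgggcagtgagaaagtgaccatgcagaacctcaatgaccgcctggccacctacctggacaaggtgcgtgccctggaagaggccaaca
Reads that fall wholly in such runs cannot be assigned by sequence, so the levels of Krt5 and Krt14 are less certain than those of Krt15, Krt4 and Krt13. A predicted miRNA gene, Gm44323, lies opposite to Krt5 and had no count in any library. Windows were matched on either strand, and of the 263 shared windows of Krt5, 80 recurred in Gm44323 and 150 in Krt6a. The 12.2% for Krt5 thus includes windows shared with this overlapping gene, which is not a keratin copy.

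RefSeq start-site windows (GRCm38.p6, 250 bases before to 50 after the start) were at hand for 3 of the 5 genes. For Krt5 and Krt13 the start site of a window lay within 7 bases of the annotated 5′ end of the gene, and these are printed because they set a basal next to a suprabasal keratin. The start site of the Krt14 window lies 1518 bases inside the gene, at a shorter transcript, and is not shown; nor is a second Krt13 window, whose start site lies 989 bases inside the gene. Capitals mark ATAAAAGG, a TATA-like run that was picked out after the windows were read, and TGANTCA, the AP-1 motif, on either strand.
Krt5, chr15:101712856-101713155, minus strand: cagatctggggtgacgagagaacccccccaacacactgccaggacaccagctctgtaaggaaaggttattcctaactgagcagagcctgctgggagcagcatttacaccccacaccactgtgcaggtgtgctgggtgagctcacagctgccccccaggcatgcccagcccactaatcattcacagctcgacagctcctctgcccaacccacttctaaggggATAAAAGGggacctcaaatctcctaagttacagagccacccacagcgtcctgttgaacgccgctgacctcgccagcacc
Krt13, chr11:100121517-100121816, minus strand: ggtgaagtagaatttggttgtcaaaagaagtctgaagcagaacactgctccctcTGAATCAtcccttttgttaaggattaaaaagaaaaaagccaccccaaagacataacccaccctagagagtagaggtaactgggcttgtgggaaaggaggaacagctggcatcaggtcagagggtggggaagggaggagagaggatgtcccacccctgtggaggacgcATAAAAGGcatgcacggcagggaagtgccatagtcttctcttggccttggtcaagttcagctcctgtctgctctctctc
The run ATAAAAGG began 29 bases before the start site in both genes, and it is found in 1.76% of all 32851 windows in the RefSeq table. An AP-1 match stood in the Krt13 window, 196 bases before the start, and none in that of Krt5; the Krt13 window not shown holds 2 such matches, and 7.81% of all windows hold at least 1. CACCC, the GT box bound by Sp and KLF factors, matched 4 times in each, on either strand, and occurs in 57.5% of all windows. These are matches of letters and say nothing about binding.

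The libraries held 23802493, 23766069 and 23914043 counts in DTA-1 replicates 1, 2 and 3, and 25216729, 23147873 and 29065162 in isotype replicates 1, 2 and 3, so that 3 reads amounted to 0.103 to 0.13 CPM by library totals. All other CPM values are scaled by TMM, which corrects for library make-up. Some libraries carried transcripts listed for other tissues. The 9 genes of a glandular stomach list (such as Pgc and Gkn1) summed to 2792 CPM in isotype replicate 3, against 1.07 to 12.2 CPM in DTA-1 libraries and 8.94 and 23.2 CPM in the other isotype libraries. The 8 genes of the airway list summed to 189.7 CPM in DTA-1 replicate 2, to 2.52 and 4.24 CPM in the other DTA-1 libraries and to 25.7 to 35.5 CPM in isotype libraries. In DTA-1 replicate 2 Cyp2f2 supplied 3635 counts, Scgb3a1 325, Foxj1 38 and Sec14l3 15, and Scgb1a1, Scgb3a2 and Bpifa1 were at 0. Dynlrb2 had 14 counts there, against 18 in DTA-1 replicate 1. Most of the sum was thus Cyp2f2, at 171.3 CPM, which also stood at 24.6 to 33.8 CPM in the isotype libraries. Of hair keratins, Krt71, Krt25, Krt27, Krt31 and Krt35 had 6 counts or fewer in every library. Striated muscle, part of the mouse esophageal wall, supplied 108360, 153830 and 121500 CPM with DTA-1 and 68476, 49759 and 104040 CPM with isotype, summed over 15 genes. Of these 15 genes 14 had positive fold changes (DTA-1 over isotype). The sums ran between 920.02 and 2202 CPM with DTA-1 and between 1051 and 3701 CPM with isotype for 10 fibroblast genes, between 253 and 1631 CPM with DTA-1 and between 144 and 565.5 CPM with isotype for 8 fat genes, and no higher than 2.18 CPM anywhere for 5 thyroid genes. The 10 epidermis and hair genes, Lor foremost, summed to 349.7 to 1315 CPM with DTA-1 and 1076 to 3099 CPM with isotype. Lor alone, which is also listed among the suprabasal genes below, had 784, 258.5 and 722 CPM in DTA-1 replicates 1 to 3. In isotype replicates 1 to 3 it had 906, 2975 and 2408 CPM. Of the 4 genes of this list that were tested, 2 had positive fold changes (Krt1 and Krt10) and 2 negative.

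The 5 keratins took a smaller part of the RNA in DTA-1 libraries than in isotype libraries. Together they amounted to 2.42%, 0.646% and 0.728% of all counts in DTA-1 replicates 1, 2 and 3, and to 3.07%, 4.03% and 3.49% in isotype replicates 1, 2 and 3. As a summed level this was 25060.0, 7239 and 7445 CPM with DTA-1 and 28489, 35165 and 36542 CPM with isotype. The groups did not overlap, but DTA-1 replicate 1 was close to isotype replicate 1, and replicates 2 and 3 were far below both. Of all single genes tested, 9.38% were lower with DTA-1 without overlap. The mean difference was -1.59 on a log2 scale, -2.18 without DTA-1 replicate 1, and -1.52 when isotype replicate 3 was left out. An exact two-sided permutation test on all 6 libraries gave p = 0.1, the smallest that 3 against 3 allows. The muscle sums above ran in the opposite direction between the groups, and their part in the difference was not tested.

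**Figure D1:**
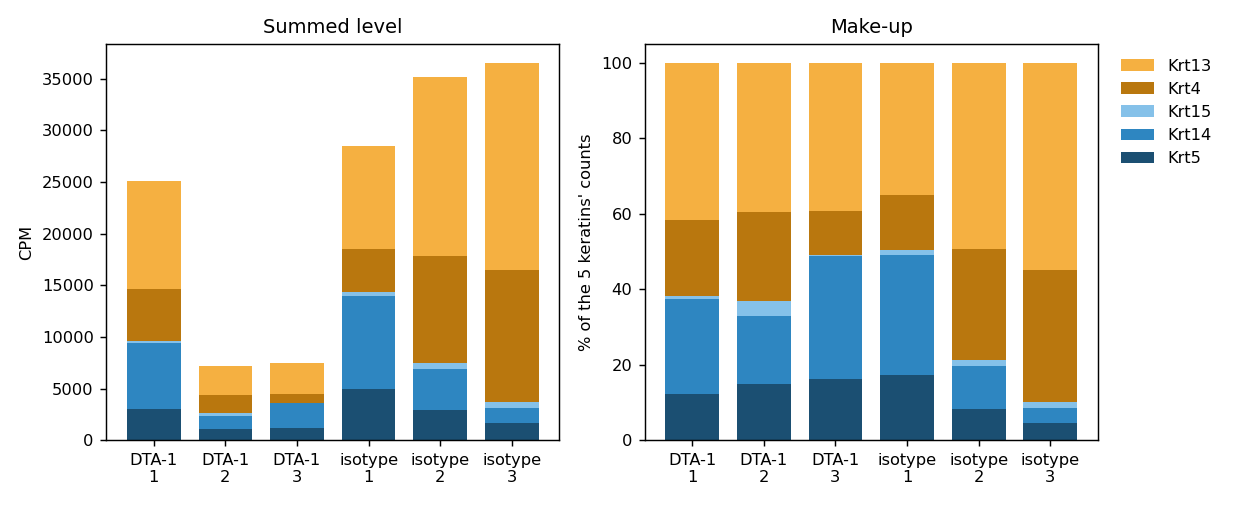
Stacked bars of the 5 keratins in each library: left, summed CPM (axis from 0), and right, percent of the 5 genes' counts. DTA-1 replicates 2 and 3 have the lowest bars (7239 and 7445 CPM), and within isotype the make-up differs most, from an even split of suprabasal and basal counts in replicate 1 to a large suprabasal excess in replicate 3.

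All 5 genes had negative fold changes (DTA-1 over isotype), with a median of -1.54 (log2), against a median of -0.03 and 52.9% negative among the 15763 genes tested. None passed edgeR's quasi-likelihood test at an adjusted p under 0.05. In that test 0.0% of all genes passed, while 1185 genes lower and 821 higher with DTA-1 (5.21%) had an unadjusted p under 0.05. Limma-voom called 0 genes and DESeq2 177 (1.06% of those it tested, 0.81% on the lower side), none of the 5 keratins among them. Krt4 and Krt13 were among the genes on the lower side at the unadjusted level, which held 7.52% of all genes tested.

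Among the suprabasal keratins, Krt13, the type I chain of the suprabasal pair, was the most abundant of the 5. DTA-1 replicates 1, 2 and 3 held 10436, 2862 and 2924 CPM, and isotype replicates 1, 2 and 3 held 9936, 17348 and 20029 CPM. DTA-1 replicate 1 exceeded isotype replicate 1, so the groups overlapped, while the other two DTA-1 libraries were lower than any isotype library. The log2 fold change was -1.54 ± 0.62 (SE), with a 95% interval of -3.01 to -0.08, and the adjusted p was 0.39 in edgeR and 0.131 in DESeq2.

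Krt4, its type II partner, reached 5042, 1704 and 869 CPM in the DTA-1 libraries (replicates 1 to 3), and 4175, 10343 and 12787 CPM in the isotype libraries (replicates 1 to 3). As with Krt13, DTA-1 replicate 1 lay above isotype replicate 1, and the groups overlapped in that place alone. Its log2 fold change of -1.84 ± 0.73 (SE), interval -3.57 to -0.11, was the largest of the 5 in size, with an adjusted p of 0.39 in edgeR and 0.12 in DESeq2. Without DTA-1 replicate 1 the fold changes were -2.82 for Krt4 and -2.45 for Krt13, and the adjusted p in edgeR were 0.0783 and 0.0562, still above the threshold, in a fit that called 3.69% of all genes (3.31% lower with DTA-1). DESeq2 without that library called both, Krt4 at 8.01e-06 and Krt13 at 1.88e-09, where it called 15.9% of all genes (10.4% lower with DTA-1). Without isotype replicate 3, the library with stomach transcripts, the fold changes in edgeR were -1.50 for Krt4 and -1.32 for Krt13.

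In the basal layer, Krt14 measured 6310, 1296 and 2424 CPM in the DTA-1 libraries by replicate, and 9022, 3982 and 1507 CPM in those with isotype. Isotype replicate 3 had less Krt14 than DTA-1 replicates 1 and 3, and the groups overlapped widely. The log2 fold change was -0.53 ± 0.78 (SE; interval -2.38 to 1.31), the adjusted p was 0.763 in edgeR, and the sign turned to 0.30 without isotype replicate 1, the library richest in Krt14. The spread between libraries of the same group, 4.87-fold with DTA-1 and 5.98-fold with isotype, was larger than the difference between the groups.

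Krt5, the type II partner of Krt14, stood at 3076, 1088 and 1204 CPM with DTA-1 (replicates 1 to 3) and at 4941, 2945 and 1647 CPM with isotype. It had the same order of libraries within the isotype group as Krt14, highest in replicate 1 and lowest in replicate 3. DTA-1 replicate 1 again lay within the isotype range. The log2 fold change was -0.83 ± 0.56 (SE; interval -2.15 to 0.50), with an adjusted p of 0.513 in edgeR. It moved to -0.35 without isotype replicate 1 and to -1.47 without DTA-1 replicate 1, where DESeq2 called it (adjusted p = 0.0165) and edgeR did not (0.163). In that setting, added after the data were seen, DESeq2 called 15.9% of all genes (10.4% lower with DTA-1).

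Krt15 differed from both in its pattern. DTA-1 replicates 1, 2 and 3 gave 196, 289 and 23.1 CPM (4498, 6130 and 540 reads), while isotype replicates 1, 2 and 3 gave 416, 547 and 572 CPM (11276, 14509 and 15859 reads). It was the only 1 of the 5 whose groups did not overlap, with DTA-1 lower throughout, a pattern that 9.38% of all tested genes had. The isotype libraries were within 1.38-fold of each other, while the DTA-1 libraries spanned 12.5-fold, with the lowest level in replicate 3. The log2 fold change was -1.60 ± 0.76 (SE; interval -3.40 to 0.20), with an adjusted p of 0.407 in edgeR and 0.236 in DESeq2. Without DTA-1 replicate 3 it was -1.08, and without DTA-1 replicate 2 it was -2.22.

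**Figure D2:**
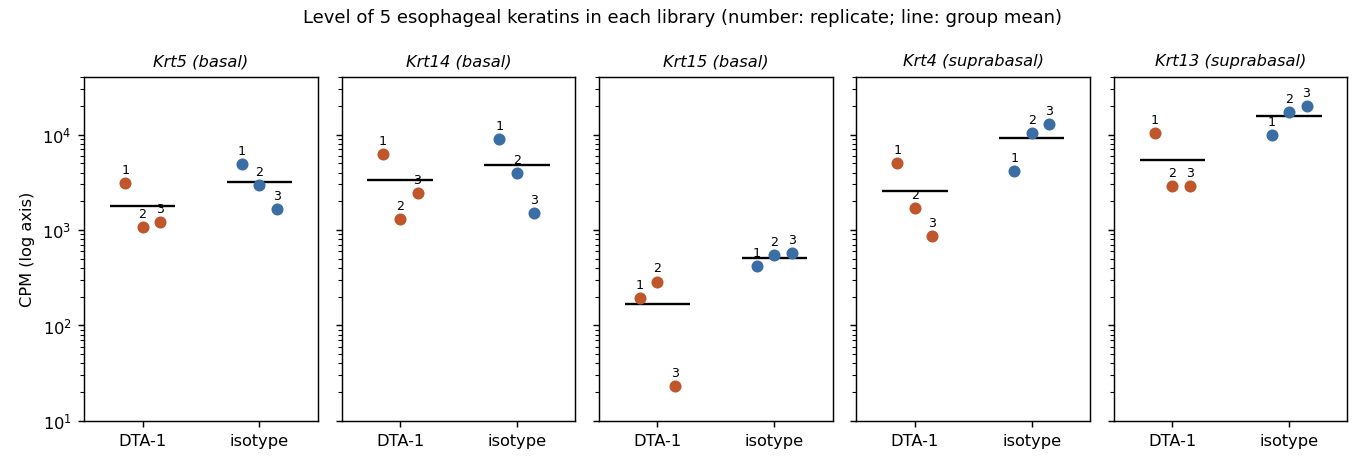
Level of each keratin (CPM, log axis) in the 3 DTA-1 libraries (left in each panel) and the 3 isotype libraries, with replicate numbers and group means as lines. Krt15 is the panel without overlap, and DTA-1 replicate 1 lies in the isotype range for the other 4.

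**Figure D3:**
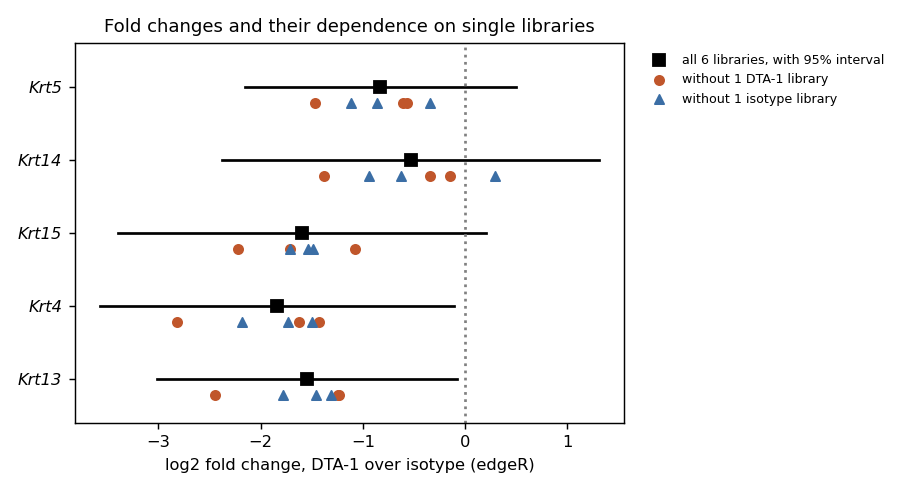
Log2 fold change (DTA-1 over isotype) of each keratin in edgeR with its 95% interval (square and line), and the values when 1 DTA-1 library (circles) or 1 isotype library (triangles) is left out. The interval of Krt4 and of Krt13 ends just below 0, and Krt14 crosses 0 when isotype replicate 1 is left out.

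Per kilobase of annotated exon, untranslated parts included, which allows levels of different genes to be compared, Krt13 was the highest of the 5 in 6 of 6 libraries and Krt15 the lowest in 6 of 6. Krt13 averaged 2970.0 ± 2392 CPM per kilobase with DTA-1 and 8661 ± 2871 in the isotype libraries (SD over n = 3). It ranked 2nd of all genes in each isotype library, and 4th, 23rd and 19th in DTA-1 replicates 1, 2 and 3. Krt4 averaged 1190.0 ± 1035 with DTA-1 and 4267 ± 2081 with isotype. Krt14 averaged 1902 ± 1496 and 2751 ± 2178, and Krt5 814 ± 508 and 1446 ± 755 in the same units and groups. Krt14 exceeded Krt5 in 6 of 6 libraries, but Krt14 and Krt4 changed places, Krt14 being the higher in 3 of 6, so these neighbors in the order did not differ beyond their spread. Krt15 averaged 95.7 ± 76.3 CPM per kilobase with DTA-1 and 290 ± 47.6 with isotype, and it ranked 3302nd in DTA-1 replicate 3 but between 100th and 347th elsewhere.

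The balance of suprabasal and basal keratins varied widely within isotype. The ratio of Krt4 and Krt13 counts to those of Krt5, Krt14 and Krt15 was 1.62, 1.71 and 1.04 in DTA-1 replicates 1, 2 and 3, and 0.981, 3.70 and 8.81 in isotype replicates 1, 2 and 3. Isotype replicate 3, the library with stomach transcripts, had the highest ratio and isotype replicate 1 the lowest, with all DTA-1 libraries between isotype replicates 1 and 2. The difference of the log2 means was -1.16 (DTA-1 minus isotype; exact permutation test, two-sided, p = 0.4; 0.1 is the smallest p that 3 against 3 allows) and -0.42 without isotype replicate 3. It was -2.01 without isotype replicate 1. The part of stomach tissue in the ratio of isotype replicate 3 was not tested. A difference between the suprabasal and basal genes in how far they were lower with DTA-1 was therefore not shown.

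Within each pair the 2 chains kept closer proportions. Krt4 had 0.483, 0.596 and 0.297 counts per count of Krt13 in DTA-1 replicates 1, 2 and 3, and 0.42, 0.596 and 0.638 in isotype replicates 1, 2 and 3. The log2 difference was -0.30 (exact permutation test, two-sided, p = 0.5), and the groups overlapped. Krt5 had 0.488, 0.839 and 0.497 counts per count of Krt14 with DTA-1, and 0.548, 0.74 and 1.09 with isotype, a log2 difference of -0.37 (exact permutation test, two-sided, p = 0.5). Krt15 counts per count of Krt5 and Krt14 ran through a far wider range, from 0.00637 in DTA-1 replicate 3 to 0.181 in isotype replicate 3. By replicate these were 0.0208, 0.121 and 0.00637 with DTA-1 and 0.0298, 0.079 and 0.181 with isotype (exact permutation test, two-sided, p = 0.4), a comparison added after the values were seen. Over these 4 ratios the Benjamini-Hochberg adjusted p was 0.5 for each (exact permutation tests).

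Likeness between genes was measured as the standard deviation, over the 6 libraries, of the difference in their log2 CPM; it is 0 when the ratio of 2 genes is constant. Between Krt4 and Krt13 it was 0.42, and between Krt5 and Krt14 it was 0.47. Between Krt15 and Krt5 it was 1.55 and between Krt15 and Krt14 it was 1.98, whereas between Krt15 and Krt4 it was 0.97. Ordered by this measure among 14145 genes, Krt13 was 10th for Krt4 and Krt4 115th for Krt13, while Krt5 was 51st for Krt14 and Krt14 633rd for Krt5. For Krt15, Krt4 was 37th, Krt5 2109th and Krt14 11400th, and Krt15 was 666th for Krt4. By its levels in these 6 libraries Krt15 thus ran nearer to the suprabasal Krt4 than to the basal pair. The 6 libraries share their group structure, depth and tissue mixture, and the values are descriptions.

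The genes closest to the mean of the 3 basal keratins were Gins2 (0.10), Clspn (0.14), Ptk7 (0.14), Fermt1 (0.17) and Slc4a11 (0.18), where the median of 13246 genes was 1.01. Gins2 and Clspn act in DNA replication, and Fermt1 encodes the epithelial kindlin, which activates integrins. Of the basal keratins themselves, Krt5 was at 0.38 from this mean, Krt14 at 0.81 and Krt15 at 1.18. Taken 1 gene at a time, which was added after the values were seen, Krt5 was closest to Cdt1 (0.099), a replication licensing factor, and Itga6 (0.12), an integrin chain of hemidesmosomes. Itga6 stood at 311.8, 115 and 116 CPM with DTA-1 (replicates 1 to 3) and at 414, 296 and 156.5 CPM with isotype. Krt14 was closest to Lama3 (0.15), a chain of laminin-332 in the basement membrane, with 143.8, 30.6 and 56.3 CPM for DTA-1 replicates 1 to 3 and 218, 112 and 30.5 CPM for isotype replicates 1 to 3. Both genes carry the feature seen in Krt5 and Krt14, a level in isotype replicate 3 below that of DTA-1 replicate 1.

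For the mean of the suprabasal keratins the closest were Dnajc6 (0.15), Mt4 (0.21), Ap1s3 (0.24), Sdr16c6 (0.26) and Tgm3 (0.26), against a median of 1.39. Mt4, a metallothionein of stratified squamous epithelium, followed Krt13 with a deviation of 0.065. The DTA-1 libraries had 232.6, 66.8 and 70.9 CPM of it, and the isotype libraries 221, 421.7 and 491.5 CPM, by replicate. Tgm3, a transglutaminase that crosslinks proteins of the cornified envelope, had 649.8, 147 and 178 CPM with DTA-1 against 648, 1199 and 1259 CPM with isotype. Krt15 had no companion as close: its nearest was Npbwr1 (0.42), a neuropeptide receptor gene at 0.128 to 1.04 CPM with DTA-1 and 2.14 to 3.9 CPM with isotype. The 0.128 CPM, in DTA-1 replicate 3, amounts to about 3 reads. Krt15 was also lowest in that library, so this likeness leans on 1 value near the floor.

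**Figure D4:**
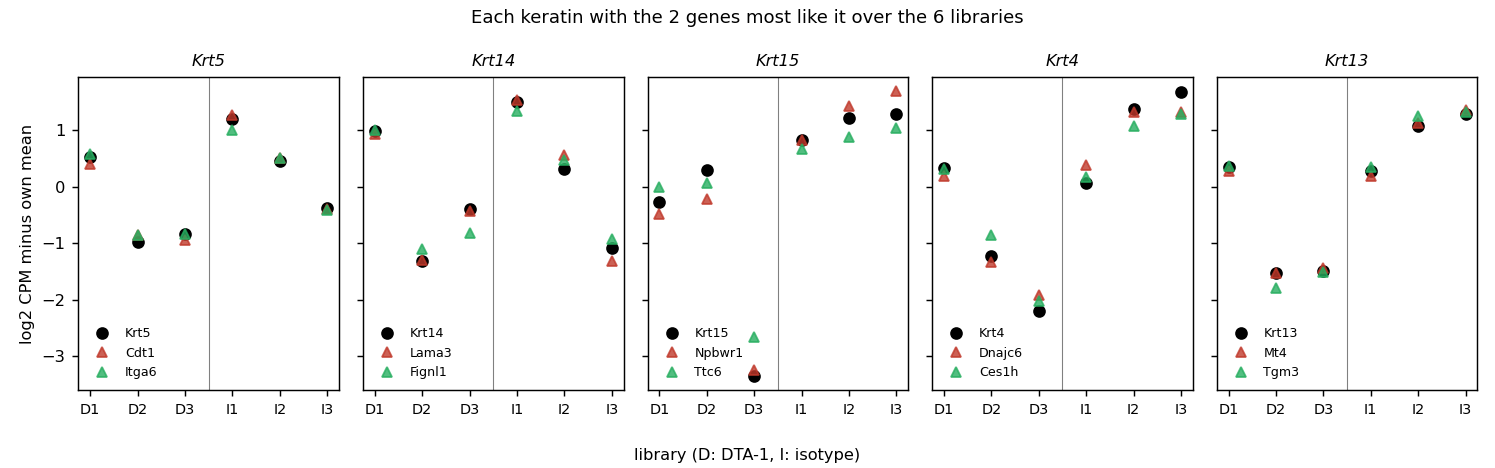
Each keratin (black circles) with the 2 genes whose ratio to it varied least (triangles), as log2 CPM minus the gene's own mean over the 6 libraries, DTA-1 (D) left of isotype (I). Krt5 with Itga6 and Krt14 with Lama3 are lowest within isotype in replicate 3, where Krt13 with Mt4 and Tgm3 is highest, and Krt15 is set apart by its low value in DTA-1 replicate 3.

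Other genes of the same layers were also lower on average with DTA-1, without any passing edgeR's test on all 6 libraries. Each of the 16 other basal layer genes had a negative fold change; their median was -0.92, and -1.44 without DTA-1 replicate 1. Of these, 2 (Sox2 and Lgals7) had an unadjusted p under 0.05, against 7.52% of all tested genes on the lower side. Mean CPM of Sox2, a factor of esophageal identity, was 23.8 ± 9.44 with DTA-1 and 51.7 ± 13.2 with isotype (all such values are SD over 3 libraries). Col17a1, the hemidesmosomal collagen, had a mean of 399.7 ± 247 CPM with DTA-1 and 822.5 ± 404 CPM with isotype. Bnc1, a zinc finger protein of basal keratinocytes, had 10.7 ± 5.34 and 21.5 ± 10.0 CPM in the same order of groups. Dst, which also has long forms in muscle and nerve, was at 597 ± 60.5 CPM with DTA-1 and 598 ± 37.4 CPM with isotype. Of 24 other suprabasal genes listed 23 were tested, and the fold change was negative in all 23, with a median of -1.03 (-1.48 without DTA-1 replicate 1). Among the 23, 12 had an unadjusted p under 0.05, against the same 7.52% of all tested genes. Lor, the main protein of the cornified envelope in skin, was at 588 ± 287 CPM in DTA-1 libraries and 2096 ± 1069 CPM in isotype libraries. Cysrt1 was at 20.8 ± 7.67 CPM with DTA-1 and 58.7 ± 12.0 CPM with isotype, and the calmodulin-like Calml3 at 78.5 ± 27.98 CPM with DTA-1 and 296 ± 43.0 CPM with isotype. The adjusted p in edgeR was 0.39 for each of these 3. DESeq2 on the same libraries called all 3, with adjusted p of 0.0488 for Lor, 0.00807 for Cysrt1 and 2.04e-05 for Calml3, and no other gene of the suprabasal or basal lists. Of all genes it tested, it called 0.81% lower with DTA-1. Sprr3 and Cnfn, cornification proteins of the esophageal surface, had fold changes of -1.45 and -1.14, with adjusted p of 0.39 in edgeR and of 0.0566 and 0.0565 in DESeq2. Without DTA-1 replicate 1, edgeR called 6 of the 23 suprabasal genes lower with DTA-1 (Krtdap, Sbsn, Tgm1, Tgm3, Cysrt1 and Klf4) and 1 of the 16 basal genes (Lgals7, adjusted p = 0.042), where it called 3.31% of all genes lower. DTA-1 replicate 1 had the highest sums of both lists within its group, so leaving it out enlarges the difference. With any other library left out, edgeR called 0 genes. List medians are given for this omission alone.

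Keratin anchor genes, whose proteins tie the filaments to desmosomes and hemidesmosomes, were lower on average with DTA-1 in 12 of 14 cases, and the median fold change was -0.79 (-1.74 without DTA-1 replicate 1). Ppl and Evpl, the plakins of the upper layers, had 173.5 ± 86.4 and 129.7 ± 77.9 CPM in DTA-1 libraries and 373 ± 33.1 and 297.6 ± 44.5 CPM in isotype libraries, with no overlap. Such a lack of overlap, with DTA-1 lower, was found in 9.38% of all tested genes. Dsg2, a desmosomal cadherin, had 9.32 ± 5.30 CPM with DTA-1 and 24.9 ± 13.0 CPM with isotype. Dsp, the linker of desmosomes, measured 2119, 492 and 635.5 CPM with DTA-1, by replicate, and 2195, 1873 and 1774 CPM with isotype, so that DTA-1 replicate 1 again lay in the isotype range. Perp, a desmosomal membrane protein, measured 2241, 458 and 618 CPM with DTA-1 and 2002, 2080.0 and 1985 CPM with isotype, so that DTA-1 replicate 1 lay above every isotype library. Without DTA-1 replicate 1, edgeR called 10 of the 14 anchor genes lower with DTA-1, among them Dsp, Perp, Ppl and Evpl. That fit called 3.31% of all genes lower, and it leaves out the DTA-1 library with the highest sum of anchor genes. With any other library left out, edgeR called 0 genes. DESeq2 on all libraries called none of the 14. Plec, which is also a major linker in striated muscle, was higher with DTA-1 without overlap, as 8.6% of all genes were (1202 ± 121 CPM with DTA-1, 886 ± 163 CPM with isotype). Its adjusted p was 0.44 in edgeR.

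The other keratins were less uniform. Of 18 tested, 14 had negative and 4 positive fold changes, their median was -0.69 (-1.10 without DTA-1 replicate 1), and 3 (Krt23, Krt20 and Krt36) were lower with DTA-1 without overlap, against 9.38% of all tested genes. Counts of Krt20 were low, with 3, 9 and 1 reads in DTA-1 replicates 1 to 3 and 189, 13 and 63 with isotype. Those of Krt36 were 8, 2 and 3 reads with DTA-1 and 12, 21 and 30 with isotype. The stress keratins Krt6b, Krt6a and Krt16, which rise in wounded and hyperproliferative epithelium, were the most abundant. For Krt6b the DTA-1 libraries had 5215, 685 and 1815 CPM and the isotype libraries 5254, 4044 and 2845 CPM, by replicate. Krt16, the copy nearest to Krt14, was at 1720 ± 1616 CPM with DTA-1 and 1757 ± 1155 CPM with isotype, a log2 fold change of -0.03 ± 0.77 (SE; adjusted p = 0.987 in edgeR); without DTA-1 replicate 1 it was -1.13 (adjusted p = 0.349). Krt23 was at 30.0 ± 7.86 CPM with DTA-1 and 62.9 ± 11.7 CPM with isotype (adjusted p = 0.39 in edgeR). DESeq2 called Krt23 (adjusted p = 0.0398) and Krt20 (0.0187) lower with DTA-1 and no other keratin, where it called 0.81% of all genes it tested lower. Without DTA-1 replicate 1, edgeR called none of the 18. The epidermal pair Krt1 and Krt10 had positive fold changes of 0.53 ± 1.03 and 0.05 ± 0.71 (SE), with adjusted p of 0.825 and 0.981; without DTA-1 replicate 1, Krt10 turned to -0.14.

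**Figure D5:**
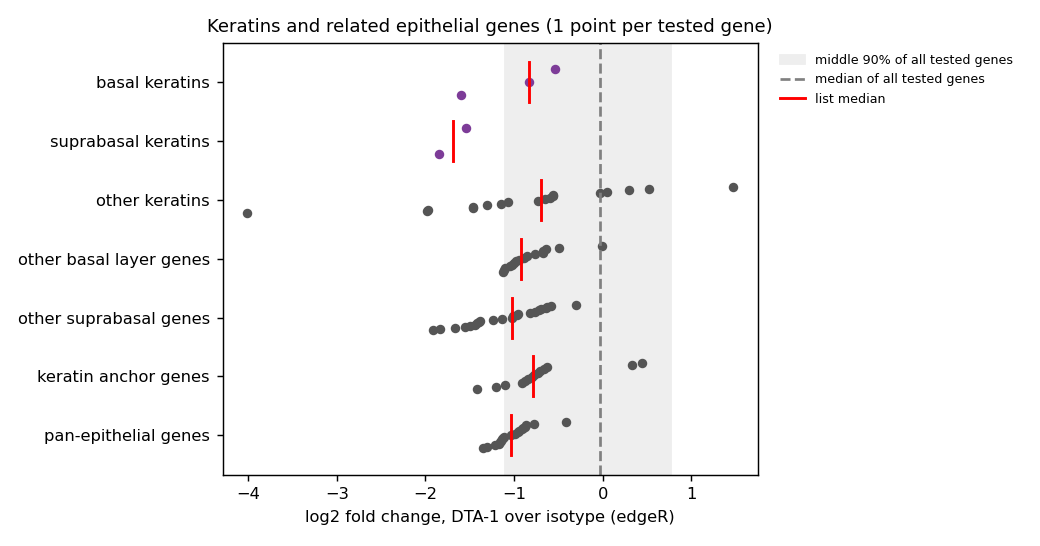
Log2 fold change (DTA-1 over isotype) of each tested gene in the 2 keratin groups (purple) and the related lists (grey), with list medians in red and the middle 90% of all tested genes shaded. The suprabasal keratins and Krt15 lie left of the shaded range, and the list medians run between -0.69 (other keratins) and -1.69 (suprabasal keratins).

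Genes expressed in epithelia of any kind were lower on average as well. The fold change was negative in all 19 of them (median -1.04, and -1.55 without DTA-1 replicate 1). In 11 of them the unadjusted p was under 0.05, against 7.52% of all tested genes on the lower side. Without DTA-1 replicate 1, edgeR called 9 of the 19 lower with DTA-1, Cdh1 and Esrp1 among them, where it called 3.31% of all genes lower. With any other library left out, it called 0 genes. DESeq2 on all libraries called none of the 19. Cdh1, the cadherin of epithelial junctions, was at 134 ± 81.3 CPM with DTA-1 and 302.6 ± 83.2 CPM with isotype. The protease inhibitor Spint2 was at 77.8 ± 21.1 CPM with DTA-1 and 171 ± 58.5 CPM with isotype. Prss8, a membrane protease, and Esrp1, an epithelial splicing factor, had fold changes of -1.11 and -0.99. The summed level of the 19 was 1235, 616 and 443 CPM with DTA-1 and 1930.1, 1513 and 1409.8 CPM with isotype. The mean log2 CPM of the 5 keratins minus that of these 19 genes was 6.47, 5.61 and 5.78 in DTA-1 replicates 1, 2 and 3, and 5.92, 6.56 and 6.45 in isotype replicates 1, 2 and 3. The groups overlapped, the difference of the means was -0.36, and taking medians in place of means turned it to 0.16.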

How the data were processed

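PolyA RNA of 6 esophagus libraries was analysed, 3 with DTA-1 and 3 with isotype antibody. The authors deposited whole-number read counts per Ensembl gene, not normalized. The submitters' processing notes name the build mm10 and 4 tools: DESeq2 1.14.1, HTSeq 0.6.1p1, STAR and cutadapt 1.13. Settings, including strand and the handling of reads that match several genes, are not stated there. Symbols came from the reference table (153 of 54232 identifiers had none), and positions and exon lengths from GENCODE M21 on GRCm38, the assembly called mm10.

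Genes passing filterByExpr (minimum count 10, minimum total 15; 15763 genes, all 5 keratins among them) were scaled by TMM and tested on treatment alone in edgeR 4.0.16 (R 4.3.3; glmQLFit with robust = TRUE, glmQLFTest), with Benjamini-Hochberg adjustment over all genes and a threshold of 0.05. SE is the fold change over the root of F, and intervals are 95%. Log2 CPM used a prior count of 2. Ratios, the summed keratin level and the keratin level relative to epithelial genes were compared with an exact two-sided permutation test over libraries. DESeq2 1.42.0, limma-voom (limma 3.58.1), 3 scalings, 2 filters, the replicate number as a block and each library left out in turn were alternatives. The edgeR step and the permutation test were tested on simulated data. No library pair matched within sampling noise (smallest median chi-square per gene 3.98, against 0.455 for noise). This smallest value was between DTA-1 replicate 1 and isotype replicate 3, a pair across the groups. Within a group the smallest was 5.75, between DTA-1 replicates 2 and 3.

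The 5 keratins and the gene lists, with 157 symbols in 14 lists, all found, were chosen with earlier results of these data known. Named from each list were the 3 genes with the smallest p and the 2 with the highest CPM, and for other keratins the 3 with the highest counts. Of these, 1 gene is not reported here. From the likeness measure (genes whose mean log2 CPM was at least 0) the 5 closest to each layer's mean were named. Tissue marker lists are given by counts and sums. Krt1, Krt10, Plec, the airway genes named, the suprabasal genes listed as called without DTA-1 replicate 1, the ratio of Krt15 to the basal pair and the likeness to single keratins were chosen after their values were seen.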

Additional observations from a re-analysis of the deposited data

How the results depend on the processing

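No gene of the 5 passed edgeR in any setting tried. Over 3 scalings, 2 filters, DESeq2, limma-voom and the replicate block, all 5 kept a negative fold change, with adjusted p between 0.12 and 0.816. Library totals alone moved the median fold change of all genes to -0.19 (from -0.03), and the keratins moved with it. The count of genes called was 0 in edgeR under each scaling, each filter and limma-voom, 177 in DESeq2, 601 in edgeR when DTA-1 replicate 1 was left out and 0 when any other library was. DESeq2 with 1 library left out (added after the data were seen) called 2444, 41 and 42 genes leaving out DTA-1 replicates 1, 2 and 3, and 179, 56 and 901 leaving out isotype replicates 1, 2 and 3.

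Leaving out 1 library gave these ranges of the log2 fold change over edgeR and DESeq2: -1.47 to -0.34 for Krt5, -1.38 to 0.31 for Krt14, -2.22 to -1.06 for Krt15, -2.82 to -1.42 for Krt4 and -2.45 to -1.23 for Krt13. Krt14 reversed without isotype replicate 1 (0.30 in edgeR, 0.31 in DESeq2). DESeq2 without DTA-1 replicate 1 called Krt5 (-1.43), Krt4 (-2.79) and Krt13 (-2.41), where it called 15.9% of all genes (10.4% lower with DTA-1). The cause was not tested. The difference in the suprabasal to basal ratio ran from -2.01 to -0.42, that in the summed keratin level from -2.18 to -1.28, that in keratins relative to epithelial genes from -0.62 to -0.19 (0.16 with medians), that in Krt5 to Krt14 from -0.63 to -0.11, that in Krt4 to Krt13 from -0.52 to -0.02 and that in Krt15 to the basal pair from -2.71 to -0.58.

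Libraries share replicate numbers without a stated pairing. Deviations from the group means correlated at 0.017, -0.333 and -0.086 for same-numbered libraries, and at -0.179 to 0.364 for differently numbered ones. Deviations of 3 libraries from their own mean are not independent, so these values cannot show whether the numbers pair the libraries. With the replicate block edgeR called 0 genes, and the fold changes were -0.86 for Krt5, -0.49 for Krt14, -2.07 for Krt15, -2.16 for Krt4 and -1.83 for Krt13. Each keratin had 540 reads or more in each library; why the keratins passed no test in edgeR was not tested.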
